A study of Mus musculus with 12 samples.

Results

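CD8 T cells transcribing chemokine and cytokine genes were examined in mouse tumours treated with chemotherapy, an antibody to PD-1 and either a neutralising antibody to acyl-CoA binding protein (ACBP, the product of Dbi) or an isotype control antibody. The cells were chosen by the authors' clustering of all cells on measured expression and by the UMIs of 3 lineage genes (a UMI, or unique molecular identifier, stands for 1 captured transcript). They are the cells that the authors' deposited table of cells places in cluster 5 and that hold more UMIs of Cd8a and Cd8b1 together than of Cd4. This gave 750 of the 30749 cells in the table and of the 1426 in cluster 5, whose remaining cells were 605 with more Cd4 UMIs and 71 with equal numbers. All 6 mice were C57Bl/6 and bore tumours of MCA205, a mouse fibrosarcoma line, grown from 300000 injected cells. Each received oxaliplatin, a platinum chemotherapy, at 10 mg/kg on day 8, and 200 µg of the PD-1 antibody another 8 days later, so both groups share these treatments. The antibody to ACBP (3 mice) or its isotype control (3 mice) was given at 2.5 mg/kg on alternate days, starting 2 days ahead of the oxaliplatin and stopping the day before the PD-1 antibody. Tumours were taken 2 days later, and CD4+ and CD8+ T cells, sorted and combined 1:1, were sequenced for gene expression and T cell receptors, with 1 library per mouse. Tumours without these treatments were not analysed here.

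CD8 T cells recognise peptides on MHC class I, and soon after receptor engagement they transcribe immediate early transcription factors, the chemokines Ccl3, Ccl4 and Xcl1, and the cytokines Ifng and Tnf. Interferon-gamma, the product of Ifng, raises antigen presentation in tumour and myeloid cells, and Xcl1 attracts dendritic cells that carry its receptor. Many of these transcripts are short-lived, and RNA-binding proteins and phosphatases induced with them bring the response down again. Activated T cells also take up more glucose, and in poorly oxygenated tissue the hypoxia-inducible factor HIF-1 drives glycolytic genes.

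The cells numbered 100, 156 and 113 in isotype mice 1 to 3 and 183, 68 and 130 in anti-ACBP mice 1 to 3, and their summed UMIs ran from 598693 to 1931606 per mouse. The median cell held 7058, 4478 and 4170 UMIs in isotype mice and 8280, 8458 and 7266 in anti-ACBP mice, so each anti-ACBP library was deeper per cell than each isotype library. Pairs of libraries shared 15 to 63 barcodes among all kept cells, and no shared barcode belonged to this population in both libraries. No Cd4 UMI was found in 703 of the 750 cells, and the median cell had 16 Cd8 UMIs. Just inside the rule, 17 cells had 1 Cd8 UMI more than Cd4 UMIs. Just outside it, 61 of the 71 cells with equal numbers had no UMI of either, and 75 cells had 1 Cd4 UMI more than Cd8 UMIs.

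All the markers that name these cells were present. Levels are CPM, the UMIs of a gene scaled to a common library total, as mean ± SD over 6 mice unless a mouse is named, and not corrected for gene length. Ccl3, a chemokine of activated T cells, was at 2231 ± 402 CPM, against 42.0 ± 15.03 in the 16315 CD8 cells of clusters 0, 1, 3, 4, 6 and 8, called other CD8 cells from here on. Ccl4, another such chemokine, was at 5842 ± 1349 CPM against 125 ± 50.6. Ifng was at 1501 ± 378 CPM against 93.5 ± 27.9, and Xcl1 at 677 ± 357 against 44.1 ± 24.2. Tnf was the least abundant of the 5, at 173 ± 181 CPM against 22.2 ± 3.68, with an SD above its mean. Cd8a was at 1354 ± 227 CPM, and Foxp3, the factor of regulatory T cells, at 3.94 ± 2.45. Because the clustering used these genes, the values describe the cells and test nothing.

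**Figure D1:**
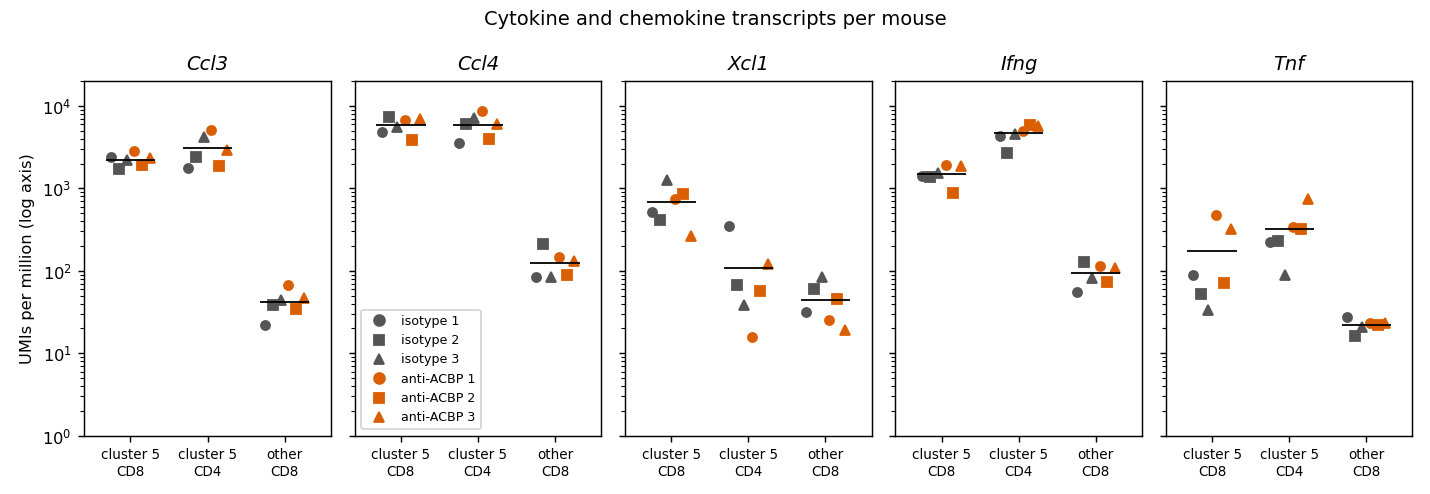
CPM (log axis) of 5 cytokine and chemokine genes in CD8 cells of cluster 5, CD4 cells of cluster 5 and other CD8 cells. Each point is 1 mouse (grey isotype, orange anti-ACBP) and the line is the mean of 6 mice; the mean of Xcl1 is 677 in the CD8 and 108 in the CD4 cells of the cluster, while that of Ifng is 1501 and 4683.

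After Ccl3 and Ccl4, the genes with the largest mean ratio to other CD8 cells were the chemokine Ccl1 (1186 ± 807 CPM), Ifng, Xcl1 and Csf2, which encodes GM-CSF (103 ± 77.5 CPM). Next came Fos (137 ± 109.7 CPM), an AP-1 subunit, Tnfsf14 (65.1 ± 22.1 CPM), a TNF family ligand, Nfkbid (238 ± 95.9 CPM), an atypical NF-kappaB regulator, and the stress gene Gadd45b (545 ± 370.0 CPM). Fos and Gadd45b varied widely over mice, from 16.7 to 286 and from 101 to 1142 CPM. The CD4 cells of the cluster had similar summed levels of Ccl3 and Ccl4 (3046 ± 1342 and 5878 ± 1899 CPM), though a smaller share of them held a Ccl4 UMI, as given below. They had more Csf2 and Ccl1 (2157 ± 1088 and 4721 ± 1051 CPM), and little Crtam, an adhesion receptor of activated cytotoxic cells (8.28 against 106 CPM, a gene chosen after its values were seen). At the low end stood granzymes that mark cluster 3: Gzmf was at 175 ± 139 CPM against 2615 ± 552 in other CD8 cells, and Gzmd at 44.4 ± 27.6 against 491 ± 187.

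Many markers of other tumour cell types were at 0, while other members of the same lists were not. No UMI was found over all 750 cells for 10 of 16 macrophage and monocyte markers (Lyz2, Csf1r and Adgre1 among them), 6 of 9 B and plasma cell markers, 9 of 11 neutrophil and mast cell markers, 7 of 14 fibroblast and tumour markers and 6 of 8 endothelial markers. The macrophage list summed to 85.0 to 103 CPM in isotype and 80.8 to 90.9 CPM in anti-ACBP mice. The fibroblast and tumour list summed to 1548 to 1814 CPM in isotype and 1746 to 1967 CPM in anti-ACBP mice. Thy1 was the 1 member of that list with enough UMIs for the treatment test. The dendritic list, with Flt3 and Clec9a at 0, summed to 47.3 to 154 CPM in isotype and 130 to 155 CPM in anti-ACBP mice. The natural killer list, with Ncr1 at 0, summed to 175 to 294 CPM in isotype and 123 to 173 CPM in anti-ACBP mice, and the list of CD4 and regulatory T cell genes to 1086 to 1639 CPM in isotype and 1141 to 1383 CPM in anti-ACBP mice. The natural killer sums did not overlap between the groups, and their part in the results below was not tested.

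Single cells did not all hold each transcript. With every cell thinned to 2000 UMIs, which left out 18 isotype and 8 anti-ACBP cells, a Ccl4 UMI was found in 85.7% ± 7.20 of cells in isotype and 88.6% ± 7.93 in anti-ACBP mice (SD, n = 3 each). A Ccl3 UMI was found in 62.4% ± 6.35 of cells in isotype and 66.4% ± 9.17 in anti-ACBP mice. In CD4 cells of cluster 5 a Ccl4 UMI was found in 37.9% to 69.0% of cells over 6 mice, against 80.3% to 96.1% here. For Ccl3 the shares were 35.6% to 56.3% in those CD4 cells, against 55.7% to 73.4% here. Ifng was found in 52.6%, 61.3% and 60.6% of cells in isotype mice 1 to 3 and 60.3%, 62.1% and 68.8% in anti-ACBP mice 1 to 3, and these overlapped. Tnf was found in 14.4%, 6.67% and 7.69% of cells in isotype mice 1 to 3 and 16.8%, 15.2% and 10.2% in anti-ACBP mice 1 to 3, again with overlap. Xcl1 was found in 15.5%, 9.33% and 30.8% of cells in isotype mice 1 to 3. In anti-ACBP mice 1 to 3 its shares were 18.4%, 27.3% and 5.47%, also with overlap. At this depth most cells of each mouse thus held no Xcl1 UMI, and the same was true of Tnf. Without thinning, Ifng was found in 70.5% ± 4.0 of cells in isotype and 81.3% ± 2.48 in anti-ACBP mice and Tnf in 23.0% ± 12.2 of cells in isotype and 38.5% ± 2.52 in anti-ACBP mice, in libraries whose depth differed as given above. At 2000 UMIs, 3 or more of the 5 genes occurred together in 47.5% ± 7.82 of cells in isotype and 53.8% ± 3.28 in anti-ACBP mice. For comparison, regulatory T cells of cluster 2, with a median of 5177 to 9766 UMIs per cell before thinning, held a Ccl4 UMI in 19.7% of cells on average (10.6% to 31.6% over mice) and a Ccl3 UMI in 8.68% (4.52% to 13.7%). They held an Ifng UMI in 5.24%, a Tnf UMI in 6.29% and an Xcl1 UMI in 0.153% of cells. Other CD8 cells at 2000 UMIs held a Ccl4 UMI in 8.02% to 21.2% of cells over mice and a Ccl3 UMI in 2.39% to 5.77%. Whether such UMIs are background or the cells' own transcripts was not tested.

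The first comparison asked which genes differed with the antibody to ACBP within these cells. UMIs were summed per mouse and tested with edgeR. At an adjusted p under 0.05, 17 of 7279 genes passed (0.234%), of which 14 were higher (0.192%) and 3 lower (0.0412%) in anti-ACBP mice, and 515 (7.08%) had an unadjusted p under 0.05. The genes that rose encode early response and mRNA decay factors (Fosb, Zfp36, Zc3h12a, Dusp1), signalling and metabolic regulators (Sgk1, Txnip, Rrad, Cited2) and surface, secreted or cytoskeletal proteins (Emp1, Gpr171, Glipr1, Vim). Those that fell were Fosl2, Ifi27l2a and Klra5. A further 2 genes that rose are counted here and not described. Group ranges were apart for 933 of the tested genes (12.8%). In summed counts, more transcripts per cell cannot be told apart from more cells that hold them. Without isotype mouse 1 the count was 79 (61 higher, 18 lower), and without isotype mouse 3 it was 9 (7 higher, 2 lower). With each cell thinned to 2000 UMIs, 18 genes passed, 7 of them among the 17. In that fit Sgk1, Txnip, Gpr171, Zfp36, Zc3h12a, Fosl2 and Rrad were lost, and Klra5 was not tested. Thinning also cut the summed UMIs from 598693 to 1931606 per mouse down to 132000 to 358000. The loss of counts therefore cannot be told apart from the equal depth.

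**Figure D2:**
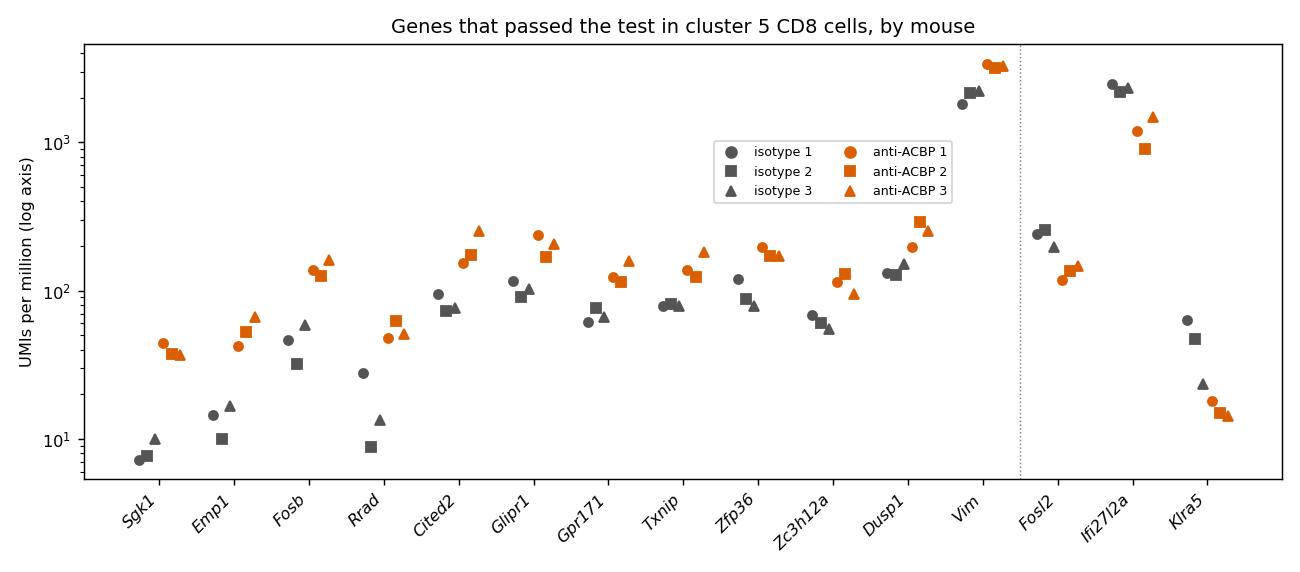
CPM (log axis) in CD8 cells of cluster 5 for the 15 named genes that passed the edgeR test, 1 point per mouse (grey isotype, orange anti-ACBP). The 12 genes left of the dotted line were higher in anti-ACBP mice and the 3 right of it lower, and the ranges of the groups are apart in each.

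Among the early response genes, Fosb, an AP-1 subunit induced within minutes of stimulation, was at 46.6, 31.9 and 58.5 CPM in isotype mice 1 to 3 and 139, 126 and 160.1 CPM in anti-ACBP mice 1 to 3. Every anti-ACBP value exceeded every isotype value, and the log2 fold change was 1.67 ± 0.19 (SE, edgeR adjusted p = 0.000352). Zfp36, or tristetraprolin, binds AU-rich cytokine mRNAs and speeds their decay. It was at 120.2, 88.1 and 78.5 against 196, 170.0 and 171 CPM in the same order of mice, a log2 fold change of 0.90 ± 0.16 (edgeR adjusted p = 0.0123). Zc3h12a, the endoribonuclease Regnase-1 that cleaves mRNAs of activated T cells, was at 68.4, 60.5 and 55.1 against 114, 129 and 94.2 CPM (0.86 ± 0.17, edgeR adjusted p = 0.0397). Dusp1, a phosphatase that switches off MAP kinases, was at 131, 127 and 150.3 against 196, 289 and 251 CPM (0.85 ± 0.16, edgeR adjusted p = 0.0171). Fosl2, another AP-1 subunit, moved the opposite way, at 240.4, 255 and 197 against 118, 135 and 148 CPM, and fell by 0.80 ± 0.14 (edgeR adjusted p = 0.0123). Fosb passed in each of 6 fits that left out 1 mouse. Zfp36 was lost without isotype mouse 2, isotype mouse 3 or anti-ACBP mouse 1 (edgeR adjusted p 0.0589 to 0.162). Zc3h12a was lost without isotype mouse 2 or 3 or anti-ACBP mouse 1 or 2 (0.107 to 0.26), Dusp1 without isotype mouse 2 or 3 or anti-ACBP mouse 2 or 3 (0.077 to 0.116), and Fosl2 without isotype mouse 2 or anti-ACBP mouse 1 or 2 (0.0526 to 0.106). In 10 other alternatives, which changed the tool, model, filters, cells or depth, Fosb passed throughout. Dusp1 was lost in 2 of them, in cells called G1 and without the 5 largest clones of each mouse (edgeR adjusted p up to 0.727). Zfp36 was lost in 3 (up to 0.282), Zc3h12a in 5 (up to 0.733) and Fosl2 in 3 (up to 0.141).

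On the list of early T cell receptor response genes, 2 of 29 tested members rose (Fosb, Zfp36) and 1 fell (Fosl2). Over all genes tested, 0.192% rose and 0.0412% fell. The median log2 fold change of the list was 0.38, beside -0.0023 over all genes tested. Cd69, an early activation marker, came next by p at 221, 190.5 and 169 against 266, 265 and 349 CPM (0.60 ± 0.14, edgeR adjusted p = 0.111). Egr2, a transcription factor of receptor signalling, was at 33.2, 20.9 and 30.1 against 60.6, 33.7 and 65.9 CPM (0.98 ± 0.26, edgeR adjusted p = 0.178). The groups were apart in both, but neither passed. Nr4a1, often used as a gauge of receptor signal, was at 692, 407 and 431 against 689, 545 and 779.5 CPM, with overlap. On the list of dissociation and heat stress genes 2 of 27 rose, Zfp36 and Dusp1, beside the same 0.192% of all genes. None of the list fell, and its median was 0.039.

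Sgk1, a kinase downstream of PI3K, was at 7.25, 7.71 and 10.0 CPM in isotype mice 1 to 3 and 44.0, 37.5 and 36.7 CPM in anti-ACBP mice 1 to 3. The lowest anti-ACBP value was several times the highest isotype value, and the log2 fold change was 2.29 ± 0.30 (edgeR adjusted p = 0.000958). These values rest on 7, 7 and 6 UMIs in isotype and 85, 30 and 44 UMIs in anti-ACBP mice 1 to 3, so the size of the fold is uncertain. Txnip, which restrains glucose uptake and inhibits thioredoxin, was at 78.7, 81.5 and 78.5 against 139, 124 and 182 CPM (0.90 ± 0.16, edgeR adjusted p = 0.0159). Rrad, a small Ras-related GTPase, was at 28.0, 8.81 and 13.4 against 48.1, 62.5 and 50.9 CPM (1.62 ± 0.31, edgeR adjusted p = 0.0327). Its isotype values rest on 27, 8 and 8 UMIs. Cited2, which competes with HIF-1 for the coactivators CBP and p300, was at 94.3, 72.7 and 76.8 against 154, 174 and 253 CPM (1.24 ± 0.19, edgeR adjusted p = 0.00776). Each of the 4 was higher in every anti-ACBP mouse than in any isotype mouse. Sgk1 passed in each fit that left out a mouse and was lost with cells thinned to 2000 UMIs (edgeR adjusted p = 0.0583), as was Txnip (0.347). Cited2 was lost without isotype mouse 3 (edgeR adjusted p = 0.114) and without cells with 2 or more TRB contigs (0.0741), and Txnip without isotype mouse 3 or anti-ACBP mouse 3 (0.106 to 0.133). Rrad was lost in 5 of 6 such fits, all but the one without isotype mouse 1 (0.0646 to 0.26), and in 6 of the 10 other alternatives (up to 0.509).

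Emp1, a tetraspan membrane protein, was at 14.5, 9.91 and 16.7 CPM in isotype mice 1 to 3 and 42.5, 52.5 and 65.9 CPM in anti-ACBP mice 1 to 3 (log2 fold change 1.98 ± 0.28, edgeR adjusted p = 0.00208). Its isotype values rest on 14, 9 and 10 UMIs. Vim, the intermediate filament vimentin, was the most abundant of the named genes that rose, at 1804, 2145 and 2209.8 against 3391, 3168 and 3289.9 CPM (0.68 ± 0.09, edgeR adjusted p = 0.00163). Glipr1, a member of the CAP protein family, was at 116, 90.3 and 102 against 237, 169 and 207 CPM (1.00 ± 0.15, edgeR adjusted p = 0.00357). These 3 passed in all 6 fits that left out a mouse, and Glipr1 was lost in cells called G1 (edgeR adjusted p = 0.0774). Gpr171, a G protein-coupled receptor of T cells, was at 61.1, 76.0 and 66.8 against 124, 114 and 158 CPM (0.96 ± 0.17, edgeR adjusted p = 0.0123), and was lost without isotype mouse 3 or anti-ACBP mouse 3 (0.0947 to 0.114). Gpr171 was also lost with the stricter lineage rule (a Cd8 UMI and no Cd4 UMI), in cells called G1 and at 2000 UMIs per cell (up to 0.375), with log2 fold changes down to 0.61.

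Ifi27l2a, an interferon-induced gene, was at 2479, 2204 and 2333 CPM in isotype mice 1 to 3 and 1190.2, 906 and 1481 CPM in anti-ACBP mice 1 to 3. Every anti-ACBP value was under every isotype value, and it fell by 0.97 ± 0.14 on the log2 scale (edgeR adjusted p = 0.0171). It was the 1 member of 37 tested type I interferon response genes that passed, beside 0.234% of all tested genes, and the median of the list was -0.21. A log2 fold change above 0 was found in 11 of the 37, beside 3604 of all 7279 tested genes. The summed level of that list was 5233 to 5776 CPM in isotype and 3249 to 4702 CPM in anti-ACBP mice. Klra5, a receptor of the Ly49 family, was at 63.2, 47.3 and 23.4 against 18.1, 15 and 14.2 CPM and fell by 1.52 ± 0.30 (edgeR adjusted p = 0.0395). Related Klra genes could share its reads, so its value is less certain. Ifi27l2a was lost without isotype mouse 3 or anti-ACBP mouse 1 (edgeR adjusted p 0.0954 to 0.169), and Klra5 in 5 of 6 such fits, all but the one without isotype mouse 3 (0.0677 to 0.181). Among the other alternatives Ifi27l2a was lost in 3 (up to 0.195) and Klra5 in 5 (up to 0.842).

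None of the markers that name the population passed the treatment test. The clustering chose cells by these genes in both groups, so their levels here describe the chosen cells and do not test whether the antibody changed them. Ccl3 was at 2394, 1718 and 2186 CPM in isotype mice 1 to 3 and 2871, 1911 and 2303 CPM in anti-ACBP mice 1 to 3, and Ccl4 at 4768, 7325 and 5470.2 against 6697, 3900.3 and 6892 CPM. Ifng was at 1428, 1386 and 1553 against 1894, 869.8 and 1875 CPM. All 3 overlapped between the groups, with log2 fold changes of 0.17 ± 0.16, -0.004 ± 0.29 and 0.091 ± 0.33. Tnf was at 89.1, 51.7 and 33.4 against 474, 71.2 and 318 CPM, which is 2.29 ± 0.84 on the log2 scale (edgeR adjusted p = 0.7), with anti-ACBP mouse 2 inside the isotype range. Xcl1 was at 521, 416 and 1263 against 743, 852 and 267 CPM, also with overlap. Of 23 tested effector cytokines and chemokines none passed in either direction, and their median was 0.13. Csf1, a macrophage growth factor, had the smallest p of them, at 97.4, 129.9 and 205 against 351, 305 and 251 CPM (1.10 ± 0.28, edgeR adjusted p = 0.368). It was the 1 gene of these 23 whose groups were apart, beside 12.8% of all tested genes.

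Cytotoxic genes were abundant, and none of 24 tested passed (median 0.064). Gzmb, granzyme B, was at 1691, 3484 and 1513 CPM in isotype mice 1 to 3 and 4969, 3570.4 and 3905 CPM in anti-ACBP mice 1 to 3. The groups were apart, but isotype mouse 2 lay just under anti-ACBP mouse 2, and the log2 fold change of 0.90 ± 0.39 had an edgeR adjusted p of 0.732. Prf1, perforin, was at 243, 509.7 and 377 against 724, 419.9 and 564 CPM and overlapped. Among inhibitory receptors and exhaustion genes none of 18 passed and the median was -0.18. Havcr2, the receptor TIM-3, was at 258, 323 and 247 against 437, 351 and 419 CPM (0.55 ± 0.13, edgeR adjusted p = 0.113), with the groups apart. Pdcd1, which encodes PD-1, was at 605, 694 and 618 against 697, 679 and 597 CPM and Lag3 at 504, 901 and 847 against 605, 757 and 688 CPM, both with overlap. Eomes, a T-box factor of cytotoxic and exhausted cells, was at 38.3, 24.2 and 21.7 against 12.9, 10.00 and 10.8 CPM (-1.30 ± 0.31, edgeR adjusted p = 0.111), and Prdm1, the factor Blimp-1, at 73.6, 132 and 60.1 against 49.7, 31.2 and 52.5 CPM (-0.97 ± 0.28, edgeR adjusted p = 0.372).

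On the NF-kappaB list none of 17 genes passed, 16 had a log2 fold change above 0 and the median was 0.23. Over all tested genes, 3604 of 7279 were above 0. Traf1, an adaptor of TNF receptors, came closest at 205, 124 and 160.3 against 344, 301 and 254 CPM (0.88 ± 0.17, edgeR adjusted p = 0.0509). Socs1, an inhibitor of cytokine receptor signalling, was at 81.9, 93.6 and 109 against 152, 140.0 and 172 CPM (0.73 ± 0.15, edgeR adjusted p = 0.0511), and none of 9 tested SOCS and Pim genes passed. On the cell cycle list none of 44 passed, 9 were above 0 and the median was -0.23, with the tubulin Tubb5 closest at 658, 681 and 633 against 489, 422 and 301 CPM (-0.69 ± 0.15, edgeR adjusted p = 0.0911). On the p53 and apoptosis list none of 24 passed and the median was 0.37. Its nearest member was Bax, a pore-forming death effector, at 189.6, 185 and 184 against 244, 247 and 320.2 CPM (0.54 ± 0.13, edgeR adjusted p = 0.14). Dbi, which encodes the protein the antibody binds, was at 176, 197 and 195 against 197, 194 and 156 CPM, with overlap, and none of 5 tested acyl-CoA binding genes passed. The antibody acts on protein, so this level is no check of the treatment.

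The change with the antibody to ACBP was then compared with the change in other CD8 cells of the same mice, as the difference of the 2 changes in 1 edgeR model with the mouse as a block. Of 10930 genes 14 passed (0.128%), 10 with a more positive change in the cytokine-producing cells (0.0915%) and 4 with a more negative one (0.0366%). With upper-quartile scaling 9 passed, 5 more positive and 4 more negative. The 10 were the hypoxia and glycolysis genes Ankrd37, Hilpda, Slc2a1, Tpi1 and Ldha, and Rgs1, Fam162a, Vim, Cited2 and Glipr1. The 4 were Ramp3, Ifi27l2a, Ifit3b and Il3. In other CD8 cells alone 117 of 11685 genes passed (1.0%), 66 higher (0.565%) and 51 lower (0.436%). Ankrd37, Hilpda, Slc2a1 and Tpi1 fell there and passed in neither direction in the cytokine-producing cells, and Ldha passed in neither class alone. Without isotype mouse 1 the number of differing genes was 96 (63 more positive, 33 more negative), without isotype mouse 2 it was 37, and without anti-ACBP mouse 2 it was 30.

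Promoters of 4 of these genes are shown because HIF-1 binds a short core, ACGTG or GCGTG, that can be looked for in them. Each is the 250 bases before a RefSeq transcription start in GRCm38.p6, read 5′ to 3′ on the strand of the gene, with matches to either core on either strand in capitals; matches on the opposite strands can overlap. Ankrd37 lies at chr8:45999851-46000100 on the minus strand. On the plus strand lie Hilpda at chr6:29272376-29272625 (the second of 2 listed starts), Slc2a1 at chr4:119108495-119108744 and Ldha at chr7:46845554-46845803 (the first of 2).
Ankrd37: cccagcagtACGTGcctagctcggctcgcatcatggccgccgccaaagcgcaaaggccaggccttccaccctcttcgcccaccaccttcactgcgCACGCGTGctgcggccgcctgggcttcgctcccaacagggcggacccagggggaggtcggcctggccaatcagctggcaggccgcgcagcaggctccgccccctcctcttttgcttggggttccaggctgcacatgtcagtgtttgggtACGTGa
Hilpda: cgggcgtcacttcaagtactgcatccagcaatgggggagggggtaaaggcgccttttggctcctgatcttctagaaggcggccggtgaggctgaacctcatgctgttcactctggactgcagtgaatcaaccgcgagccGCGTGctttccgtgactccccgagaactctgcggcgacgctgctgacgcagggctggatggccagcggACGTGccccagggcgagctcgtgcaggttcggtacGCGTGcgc
Slc2a1: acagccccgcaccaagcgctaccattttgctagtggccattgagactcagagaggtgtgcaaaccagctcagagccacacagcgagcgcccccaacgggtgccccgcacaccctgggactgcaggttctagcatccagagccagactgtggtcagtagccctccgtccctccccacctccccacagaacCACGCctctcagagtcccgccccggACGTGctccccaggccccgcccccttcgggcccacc
Ldha: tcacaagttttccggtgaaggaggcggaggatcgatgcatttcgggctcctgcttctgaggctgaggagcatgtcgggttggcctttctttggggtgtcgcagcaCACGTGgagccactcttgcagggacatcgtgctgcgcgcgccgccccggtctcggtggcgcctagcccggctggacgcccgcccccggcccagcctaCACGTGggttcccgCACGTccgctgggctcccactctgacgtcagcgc
These windows held 4 matches in Ankrd37, 3 in Hilpda, 2 in Slc2a1 and 5 in Ldha, and the window of Tpi1 held 0, as did that of the first Hilpda start. Of all 32851 RefSeq windows of this length, 38.6% held either core, 16.6% ACGTG and 28.2% GCGTG. Counted per gene over all its windows, 28 of 31 genes of the glycolysis and hypoxia list described below held either core (90.3%). Of all 27025 genes with a window, 41.5% did. Matches were thus usual for members of that list. A match says only that these letters are present.

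Ankrd37, an ankyrin repeat gene induced by HIF-1, was at 109.8, 45.1 and 75.2 CPM in isotype mice 1 to 3 and 64.7, 23.7 and 56.7 CPM in anti-ACBP mice 1 to 3 in the cytokine-producing cells, and the groups overlapped. In other CD8 cells it was at 107, 52.0 and 107 against 18.3, 9.99 and 16.3 CPM, with every anti-ACBP value far under every isotype value. The log2 fold changes were -0.59 ± 0.43 and -2.60 ± 0.36, and the difference was 1.94 ± 0.20 (edgeR adjusted p = 1.98e-09). By cluster, the anti-ACBP mice averaged 48.4 ± 21.7 CPM in the cytokine-producing cells (SD, n = 3). CD8 cells of clusters 0, 3, 4 and 6, in each of which the groups were apart, averaged 13.8 ± 3.05, 16.3 ± 3.67, 14.0 ± 5.20 and 13.3 ± 7.10 CPM in those mice. The isotype means were close, 76.7 CPM in cluster 5 and 68.4 to 93.9 in the other 4. In CD8 cells of clusters 1 and 8 the groups overlapped, as in cluster 5.

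Hilpda, whose product coats lipid droplets and inhibits lipolysis, was at 232, 418 and 232 against 214, 177 and 251 CPM in the cytokine-producing cells and at 252, 436 and 361 against 129, 135 and 158 CPM in other CD8 cells. The groups overlapped in the first and were apart in the second, and the changes differed by 0.89 ± 0.13 (edgeR adjusted p = 6.56e-05). By cluster, Hilpda groups were apart in CD8 cells of clusters 0, 1, 3 and 4 and overlapped in clusters 6 and 8, as in cluster 5. Isotype and anti-ACBP means were 245 and 165 CPM in cluster 6, beside 294 and 214 CPM in cluster 5. Slc2a1, the glucose transporter GLUT1, was at 116, 112 and 95.2 against 84.4, 82.5 and 95.05 CPM, with the groups apart by a narrow margin, and in other CD8 cells at 144, 105 and 130.4 against 60.3, 55.7 and 72.8 CPM (difference 0.71 ± 0.16, edgeR adjusted p = 0.0317). Tpi1, triosephosphate isomerase, was at 968, 757 and 693 against 761, 759.8 and 749 CPM, and in other CD8 cells at 984, 793 and 1062 against 629, 589 and 651 CPM (difference 0.53 ± 0.11, edgeR adjusted p = 0.0315). Ldha, lactate dehydrogenase A, was at 1495, 1520.3 and 1415 against 1751, 1812 and 1682 CPM, higher in each anti-ACBP mouse. In other CD8 cells it was at 1813, 1721 and 2089.7 against 1639, 1646 and 1679 CPM, lower in each anti-ACBP mouse (difference 0.45 ± 0.09, edgeR adjusted p = 0.0256).

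**Figure D3:**
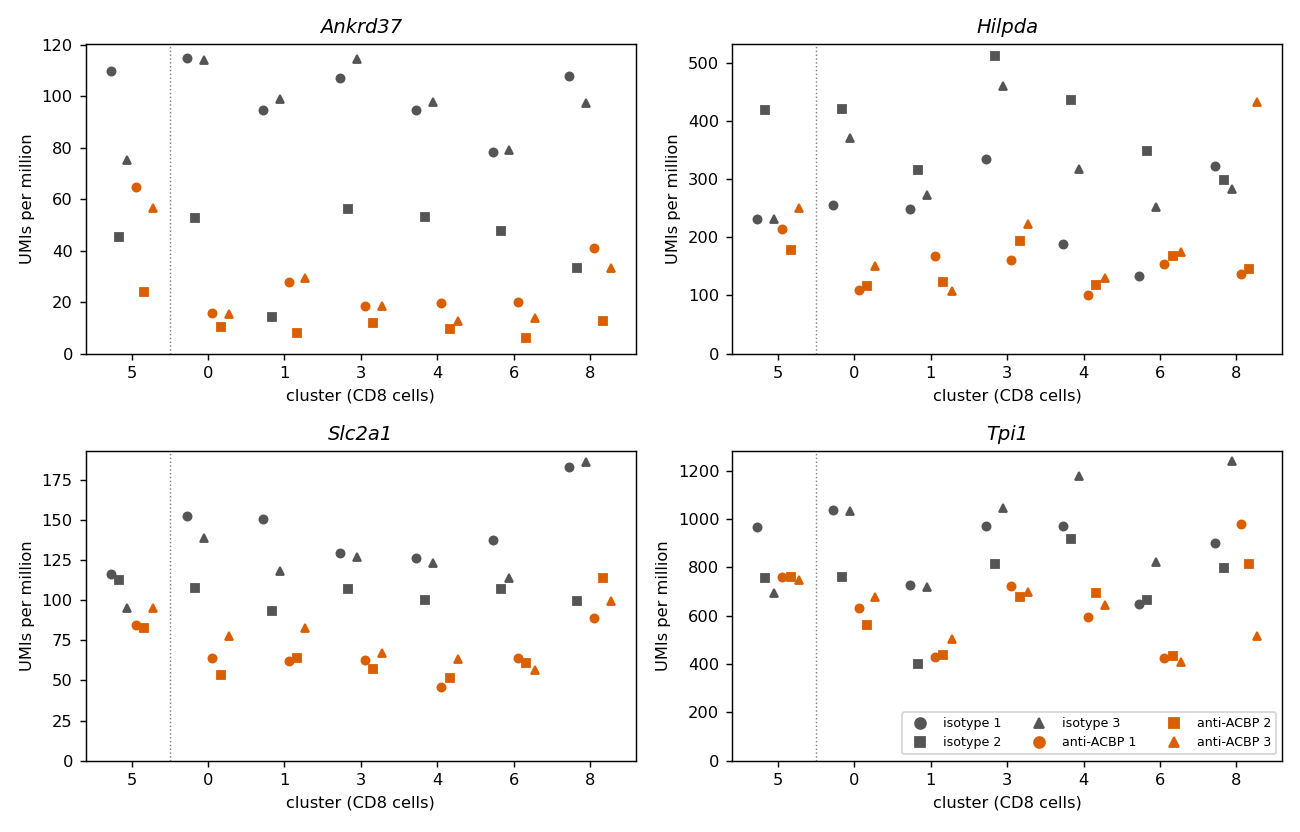
CPM of 4 hypoxia and glycolysis genes in CD8 cells by cluster, 1 point per mouse (grey isotype, orange anti-ACBP), with cluster 5 left of the dotted line. Ankrd37 in anti-ACBP mice averages 48.4 CPM in cluster 5 and 13.3 to 16.3 CPM in clusters 0, 3, 4 and 6.

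On the whole list of 37 glycolysis and hypoxia genes, 0 of 32 tested members rose or fell in the cytokine-producing cells, with a median log2 fold change of 0.032. In other CD8 cells 8 of 36 fell and none rose, with a median of -0.34, while 0.436% of all genes tested there fell. The difference was more positive in the cytokine-producing cells for 5 of 35 members, beside 0.0915% of all genes tested. The median difference of the members was 0.42, beside 0.0067 over all genes tested. Over the 9 alternatives 2 to 16 members passed, none of them more negative, and the median ran from 0.35 to 0.53. Hk2, the inducible hexokinase, and Ddit4, an inhibitor of mTORC1, fell in other CD8 cells (log2 fold changes -1.17 and -1.29, edgeR adjusted p = 0.00659 and 0.00659). Their difference from the cytokine-producing cells did not pass (edgeR adjusted p = 0.882 and 0.999). Summed, the list was at 15336, 15403 and 15596 CPM in isotype mice 1 to 3 and 15395, 17111 and 17232 CPM in anti-ACBP mice 1 to 3 in the cytokine-producing cells, with overlap. In CD8 cells of cluster 0 it was at 18257, 16322 and 21349 against 14903, 15204 and 17093 CPM, also with overlap, since isotype mouse 2 lay under anti-ACBP mouse 3. In the CD4 cells of cluster 5, 2 of 32 members fell, beside 0.0442% of all genes tested there, none rose, and the median was -0.18. The 2 were Slc2a1 and Ddit4 (log2 fold changes -0.97 and -1.11, edgeR adjusted p = 0.0294 and 0.00233). Ankrd37 and Hilpda had log2 fold changes of -0.84 and -0.48 there, which did not pass.

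**Figure D4:**
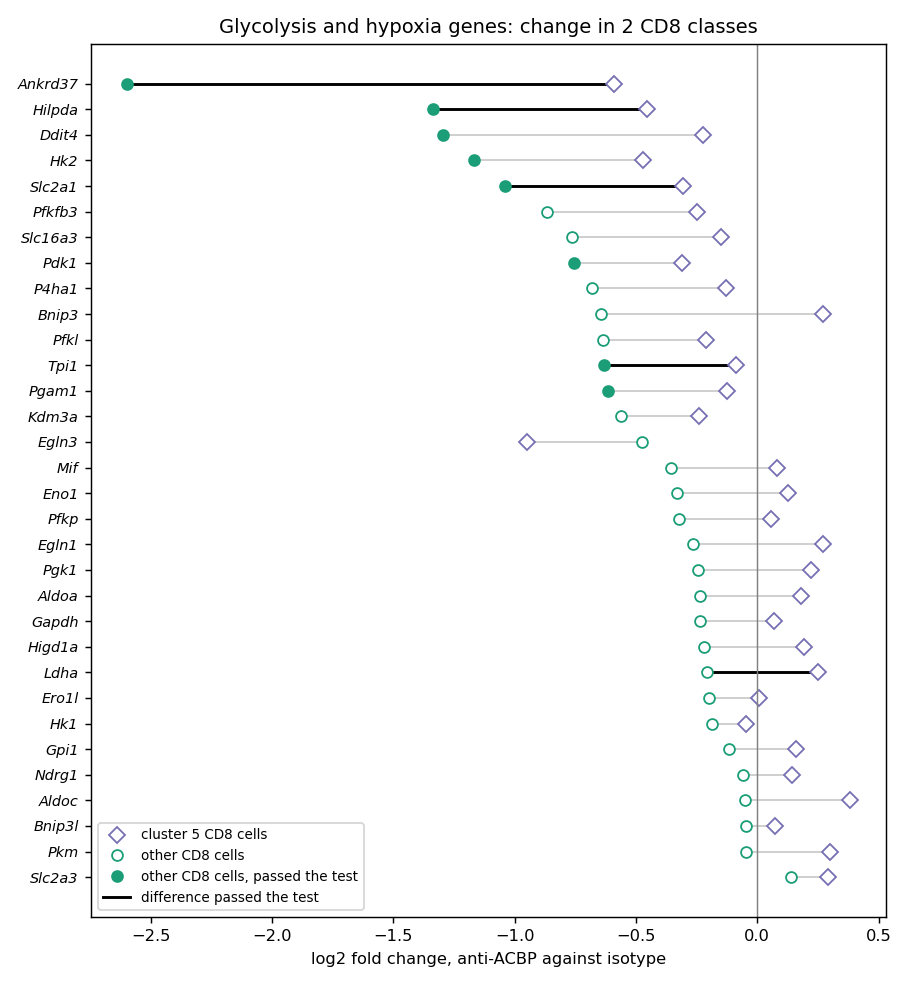
Log2 fold change of anti-ACBP against isotype for members of the glycolysis and hypoxia list, diamonds for CD8 cells of cluster 5 and circles for other CD8 cells. Filled circles passed the edgeR test in other CD8 cells, no diamond passed, and black lines mark the 5 genes whose difference passed.

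Ankrd37, Hilpda and Rgs1 passed in all 9 alternatives of this comparison. Rgs1, which damps G protein signalling, was at 451, 661 and 403 against 573, 656 and 795 CPM in the cytokine-producing cells and at 328, 557 and 344 against 286, 358 and 434 CPM in other CD8 cells (difference 0.63 ± 0.11, edgeR adjusted p = 0.00102). Fam162a, a mitochondrial protein induced by hypoxia, was at 242, 161 and 177 against 263, 272 and 243 CPM and in other CD8 cells at 214, 187 and 248 against 177, 180.5 and 176 CPM (difference 0.72 ± 0.13, edgeR adjusted p = 0.00429), and was lost without isotype mouse 3 (0.0561). Without isotype mouse 3, anti-ACBP mouse 1 or anti-ACBP mouse 3, Tpi1 and Slc2a1 were lost (edgeR adjusted p 0.0613 to 0.362 and 0.0665 to 0.2), and Ldha without isotype mouse 3 or anti-ACBP mouse 1 (0.0613 to 0.221). All 3 were also lost with upper-quartile factors and against CD8 cells of clusters 0, 3 and 6 only, so Tpi1 and Slc2a1 passed in 4 and Ldha in 5 of the 9 alternatives.

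Vim, Cited2 and Glipr1, which rose in the cytokine-producing cells, had changes above those of other CD8 cells by 0.43 ± 0.09, 0.80 ± 0.16 and 0.63 ± 0.14 (edgeR adjusted p = 0.0121, 0.0121 and 0.0352). Vim and Cited2 were lost without anti-ACBP mouse 3 (0.074 and 0.185), and Glipr1 without isotype mouse 2 or 3 or anti-ACBP mouse 1 or 3 (0.147 to 0.185). With upper-quartile factors Vim was lost (0.0643). Glipr1 was lost with those factors and against clusters 0, 3 and 6 only (up to 0.0843), so it passed in 3 of 9 alternatives. For Ifi27l2a the difference was -0.46 ± 0.10 (edgeR adjusted p = 0.0317), lost without isotype mouse 2 or 3 or anti-ACBP mouse 1 or 2 (0.139 to 0.275) and against clusters 0, 3 and 6 only (0.0831). These tests pooled the other CD8 cells. In CD8 cells by cluster, mean Vim went from 1212 (isotype) to 2066 CPM (anti-ACBP) in cluster 1. It went from 2647 to 3772 in cluster 6, beside 2053 to 3283 in cluster 5. Vim groups were apart in clusters 1, 5 and 6 and overlapped in clusters 0, 3, 4 and 8. Mean Ifi27l2a went from 1805 to 957 in cluster 6, beside 2339 to 1192 in cluster 5. Its groups were apart in clusters 0, 4, 5 and 6 and overlapped in clusters 1, 3 and 8. Mean Glipr1 went from 105 to 151 in cluster 4, beside 103 to 204 in cluster 5. Glipr1 groups were apart in clusters 0, 1, 4, 5 and 6 and overlapped in clusters 3 and 8. Cited2 groups were apart in clusters 0 and 5 and overlapped in clusters 1, 3, 4, 6 and 8. Ramp3, a receptor-activity modifying protein, was at 88.1, 31.9 and 53.4 against 35.7, 52.5 and 51.7 CPM in the cytokine-producing cells and at 38.9, 12.4 and 23.1 against 35.8, 51.7 and 42.0 CPM in other CD8 cells (difference -1.09 ± 0.21, edgeR adjusted p = 0.00799), lost without anti-ACBP mouse 1 (0.0627). Fosb, Gpr171 and Fosl2 passed in both classes, in the same direction. For Fosb and Sgk1 the difference was -0.13 ± 0.21 and 0.86 ± 0.36 (edgeR adjusted p = 0.999 and 0.882), which did not pass.

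Against the CD4 cells of cluster 5, no gene of 7797 had a change that differed at an edgeR adjusted p under 0.05 (0.0%), and 396 had an unadjusted p under 0.05 (5.08%). In those CD4 cells alone 19 of 6794 genes passed (0.28%), 16 higher (0.236%) and 3 lower (0.0442%). Fosb, Emp1 and Zc3h12a rose in both lineages, with log2 fold changes in the CD4 cells of 2.05, 1.59 and 1.01 (edgeR adjusted p = 0.000644, 0.0185 and 0.0212).

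T cell receptors were read as clones, meaning cells of 1 mouse that carry a single TRB contig with an identical V gene and CDR3. The choice of cells used no receptor contigs. Whether the authors' clustering used expression of receptor segment genes was not checked. A receptor was typed in 71, 123 and 88 of the cells in isotype mice 1 to 3 and in 118, 44 and 99 in anti-ACBP mice 1 to 3. The clones with most cells in the population, including the largest of each mouse, are shown because their sequences recur in other CD8 clusters. Each line is the CDR3 coding sequence of the deposited contigs, 5′ to 3′, with the first and last codon in capitals.
anti-ACBP 1, clone 1: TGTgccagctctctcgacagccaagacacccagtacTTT
isotype 2, clone 1: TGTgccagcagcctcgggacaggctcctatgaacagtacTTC
anti-ACBP 3, clone 1: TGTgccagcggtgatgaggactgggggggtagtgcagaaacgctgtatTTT
anti-ACBP 1, clone 2: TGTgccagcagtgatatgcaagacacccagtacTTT
anti-ACBP 1, clone 3: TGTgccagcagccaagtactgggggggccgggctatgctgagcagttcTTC
isotype 2, clone 2: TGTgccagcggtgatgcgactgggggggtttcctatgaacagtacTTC
isotype 3, clone 1: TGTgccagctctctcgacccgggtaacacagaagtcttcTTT
anti-ACBP 2, clone 1: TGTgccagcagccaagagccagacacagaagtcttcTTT
isotype 1, clone 1: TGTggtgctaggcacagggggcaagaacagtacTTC
Clone 1 of anti-ACBP mouse 1 (TRBV12-2) made up 26.3% of the typed cells of that mouse. It had 31 of its 611 CD8 cells in the population (5.07%, exact 95% interval 3.47 to 7.12%), beside 313 in cluster 0 and 95 in cluster 3. Clone 1 of isotype mouse 2 (TRBV5) had 21 of its 216 CD8 cells in the population (9.72%, exact 95% interval 6.12 to 14.5%), and clone 1 of anti-ACBP mouse 3 had 20 of its 168 CD8 cells in the population (11.9%, exact 95% interval 7.43 to 17.8%). The lowest share among the clones shown was that of clone 1 of isotype mouse 1, with 6 of its 280 CD8 cells in the population (2.14%, exact 95% interval 0.790 to 4.61%). The highest was that of clone 2 of isotype mouse 2, with 8 of its 31 CD8 cells in the population (25.8%, exact 95% interval 11.9 to 44.6%). Intervals cover counting error alone. None of these clones had a CD4 cell, and clone 2 of isotype mouse 2 and clone 1 of isotype mouse 3 were each tied with another clone of their mouse.

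Nearly every typed cell belonged to a clone that was also found outside the cluster. The share with a clone member among other CD8 cells was 97.2, 98.4 and 94.3% in isotype mice 1 to 3 and 96.6, 95.5 and 91.9% in anti-ACBP mice 1 to 3. The share in clones of 2 or more CD8 cells was the same in each mouse, so no such clone lay in cluster 5 alone. The difference between the groups was -1.96 percentage points (exact two-sided permutation p = 0.4, 0.5 after Benjamini-Hochberg adjustment over 4 tests), where 3 mice against 3 cannot give a p under 0.1. By cluster, 89.9% to 98.4% of the cells had a clone member in cluster 0 and 67.6% to 89.0% in cluster 3, and 1.01% to 59.2% in cluster 8. These shares rest on unequal numbers of typed cells. Cluster 0 had 831 to 1747 per mouse, while cluster 8 had 2 to 13 in 5 mice and 55 in isotype mouse 1, the mouse with 59.2%. The Morisita-Horn index, which is 1 for identical clone frequencies and 0 for no shared clone, had a median over mice of 0.760 with cluster 0, 0.672 with cluster 4, 0.643 with cluster 3, 0.590 with cluster 6 and 0.549 with cluster 1. With cluster 8 the median was 0.275, from those few cells, and the index was 0.617 in isotype mouse 1.

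Cells in clones of 2 or more made up 95.6% of the typed cells on average, against 93.7% of other CD8 cells. The difference of 1.90 ± 2.24 percentage points (SD, n = 6) was positive in 5 of 6 mice (exact two-sided sign-flip permutation p = 0.09375). A different quantity, clones of 2 or more counted within equal numbers of cells of each class, gave 47.7% to 87.8% of the typed cells over mice against 46.2% to 77.9% of other CD8 cells. Its difference was 4.43 points, positive in 6 of 6 mice (exact p = 0.03125, the smallest that 6 mice allow). For the first quantity, the CD4 cells of cluster 5 averaged 91.9%. The difference from them was 3.71 ± 5.14 points, positive in 4 of 6 mice (exact sign-flip p = 0.156). Within equal numbers of CD8 and CD4 cells of the cluster, the shares were 67.6, 87.8 and 67.9% against 55.1, 69.0 and 77.8% in isotype mice 1 to 3. In anti-ACBP mice 1 to 3 they were 74.7, 47.7 and 53.6% against 62.8, 60.4 and 52.5%. Thinned to 44 cells per mouse, the effective number of clones (inverse Simpson index) was 20.2, 14.4 and 19.5 in isotype mice 1 to 3 and 8.99, 19.4 and 15.5 in anti-ACBP mice 1 to 3 (exact permutation p = 0.5, adjusted 0.5). The lowest value was that of anti-ACBP mouse 1, which held the clone of 31 cells, and the groups overlapped.

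**Figure D5:**
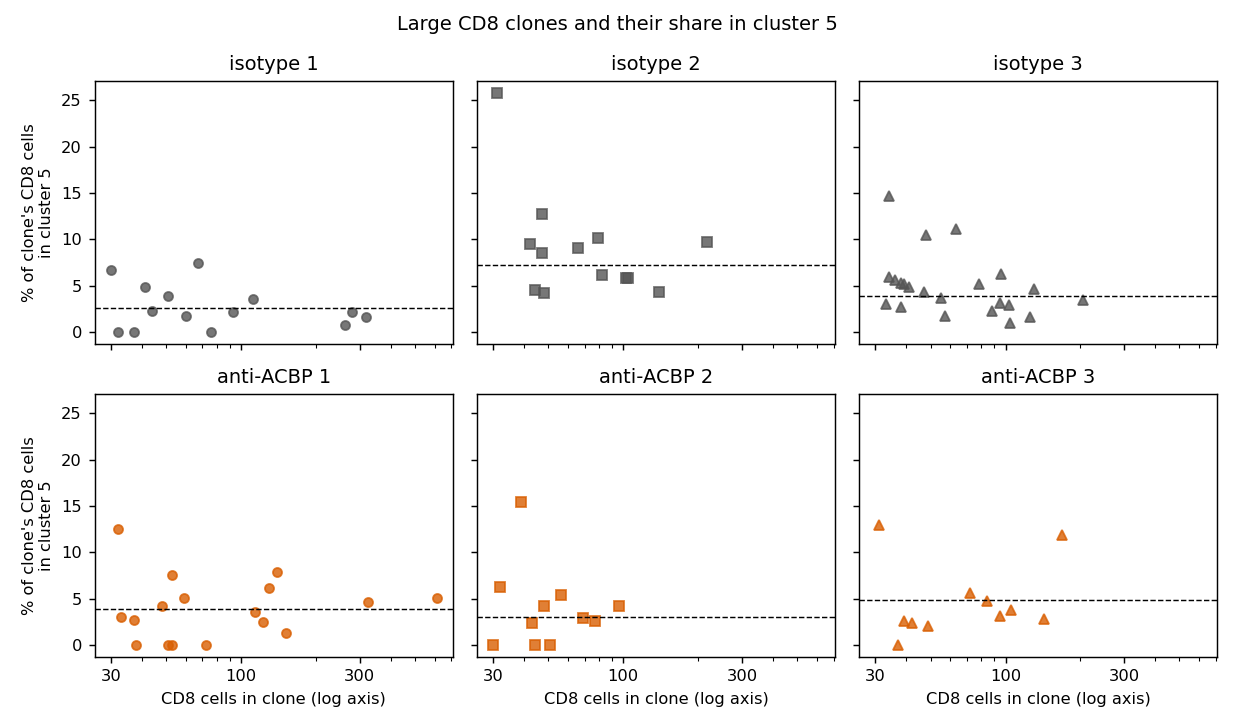
Percent of a clone's CD8 cells that fell in cluster 5 by the number of its CD8 cells (log axis), for clones of 30 or more CD8 cells, 1 panel per mouse. The dashed line is the percent over all typed CD8 cells of that mouse, and clones range from 0 to 25.8%.

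Among clones of 30 or more CD8 cells, the share in cluster 5 ran from 0 to 7.46% in isotype mouse 1, where 3 of 14 were at 0, and from 4.17% to 25.8% in isotype mouse 2, where none of 13 was. Clones of this size carry wide counting error, as the intervals above show, and whether clones differed in this share was not tested.

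Of all CD8 cells, the population made up 2.65, 7.10 and 3.89% in isotype mice 1 to 3 and 4.42, 3.76 and 5.06% in anti-ACBP mice 1 to 3, with overlap. The means were 4.55% ± 2.29 and 4.42% ± 0.651 (SD, n = 3, exact two-sided permutation p = 0.9). None of the 10 genes with the largest ratio to other CD8 cells passed the treatment test, which describes cells that were clustered on such genes. Cells that the authors' table calls S or G2M made up 35.0, 38.5 and 33.6% in isotype mice 1 to 3 and 33.9, 20.6 and 30.8% in anti-ACBP mice 1 to 3, with overlap (exact permutation p = 0.2, adjusted 0.5). In other CD8 cells they made up 30.05, 41.8 and 44.4 against 28.0, 27.7 and 27.4%. Phase calls rest on transcripts and are not read as cycling.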

How the data were processed

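The members and the gene lists were chosen with earlier results of these data known. The authors deposited UMI counts per cell and gene as raw count matrices, made with Cell Ranger 7.0.0 on mm10 per the submitters' processing notes, with a table of kept cells, their clusters and phases, and receptor contigs. The filters on cells, the treatment of doublets and the meaning of the table's DF1 column are not given in the sources used here. No doublet caller was run, and alternatives left out cells with DF1 FALSE or with 2 or more TRB contigs.

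UMIs were summed per mouse and class and tested with edgeR 4.0.16 in R 4.3.3 (TMM factors, filterByExpr, robust quasi-likelihood F test, Benjamini-Hochberg 0.05), leaving out receptor and immunoglobulin segments. DESeq2 1.42.0 was an alternative. Shares were compared over mice with exact permutation tests, and scripts were tested on simulated data. Nothing in the labels says more of replicates than 1 library per mouse, so p-values measure the spread between these libraries. Named genes were the label markers and a fixed set, up to 10 higher and 10 lower genes that passed with the largest fold and at least 10 CPM, up to 4 genes per list by p, and up to 10 genes per difference by p. Others named (Vim and Dusp1 among the genes that passed, and genes of the glycolysis list) come from those lists or differences. Labels with the same replicate number did not pair mice.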

Additional observations from a re-analysis of the deposited data

Results flagged for a closer look

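The change with the antibody to ACBP differed between the cytokine-producing CD8 cells and other CD8 cells of the same mice for 14 genes, each by an edgeR test of the difference itself. On the log2 scale, a positive difference means a more positive change in the cytokine-producing cells. It was 1.94 for Ankrd37, 0.89 for Hilpda, 0.71 for Slc2a1, 0.53 for Tpi1 and 0.45 for Ldha. For the other genes with a positive value it was 0.80 for Cited2, 0.72 for Fam162a, 0.63 for Rgs1, 0.63 for Glipr1 and 0.43 for Vim. It was -0.46 for Ifi27l2a, -1.09 for Ramp3 and -2.31 for Ifit3b, the last an interferon-induced gene with 8, 14, 17 UMIs in isotype and 6, 3, 6 UMIs in anti-ACBP mice in the cytokine-producing cells. Ifit3b was lost in 4 of 9 alternatives, without isotype mouse 3, anti-ACBP mouse 1 or anti-ACBP mouse 3 (edgeR adjusted p 0.0676 to 0.501) and against CD8 cells of clusters 0, 3 and 6 only (0.0636). Il3, a growth factor of blood cells, had a fitted difference of -8.09 from 6 UMIs in isotype mouse 1 and 4 in anti-ACBP mouse 2, with 0 in the other 4 mice, so its size cannot be read as a fold. Other CD8 cells were pooled for these tests. Taken by cluster, groups were also apart for Vim in clusters 1 and 6 and for Ifi27l2a in clusters 0, 4 and 6. The same held for Glipr1 in clusters 0, 1, 4 and 6 and for Cited2 in cluster 0. Whether the change in any single one of those clusters differed from that in cluster 5 was not tested. What lies behind the differences was not tested.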

How the results depend on the processing

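For genes that changed in the cytokine-producing cells, 17 in the analysis as reported, DESeq2 gave 26 (21 higher, 5 lower, 14 of them shared), no filter on low counts 120, cells called G1 10, cells thinned to 2000 UMIs 18 (7 of them shared), and leaving out 1 mouse 9 to 79. With the replicate number as a block it gave 29, but same-numbered mice did not deviate together (correlations 0.184, 0.00258 and 0.00231), so the numbers are not read as pairs. With that block none of the tests of shares could go below 0.25. For genes whose change differed from other CD8 cells, 14 as reported, the count was 9 against clusters 0, 3 and 6 only, 9 with upper-quartile factors, 38 without a filter, and 11 to 96 without 1 mouse. For the CD4 cells of the cluster, 0 as reported, it was 15 without a filter and 0 to 2 without 1 mouse. With cells thinned to 2000 UMIs, calls were lost for 7 of the 15 named genes (Sgk1, Txnip, Gpr171, Zfp36, Zc3h12a, Fosl2, Rrad). Thinning made depth per cell equal and also cut the summed UMIs to 132000 to 358000 per mouse, and the 2 cannot be told apart. The difference in expanded clones from other CD8 cells was 4.43 points and passed when clones were counted within equal numbers of cells of each class, which changes both the number of cells and the quantity counted. Il3 ran from -8.63 to 0.064 and turned direction without isotype mouse 1. The cause of these shifts was not tested. Among the 15 named genes that passed, calls were lost in 65 of 239 fits, and among 105 that did not, 75 of 1630 fits passed. Depth limits the reading of genes at a few UMIs per mouse, and 68 to 183 cells per mouse limit the shares.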
